A study of Homo sapiens with 15 samples.

Results

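The SOX transcription factors measured here were SOX2, SOX4, SOX5, SOX6, SOX9, SOX10, SOX11, SOX12 and SOX13. They are 9 of the 19775 genes with a probe set of their own on the array, and all 34 probe sets whose only listed symbol was one of these names were taken, of 54675. The cells were IMR32, an established human neuroblastoma line, transfected with an MSX1 gene that doxycycline switches on. MSX1 encodes a homeodomain transcription factor. The 15 arrays formed 5 groups of 3. Doxycycline was added to induced cells, which were sampled at t = 8, t = 24 and t = 48, while control cells carried the same inducible gene and reached t = 48 without doxycycline. Cells at t = 0 carried it as well. The unit of time, the number of clones and the culture each replicate came from are not stated, so p-values reflect only the scatter among these arrays, which may be technical. No group had doxycycline without the MSX1 gene, so an effect of the drug and one of MSX1 cannot be told apart. No control cells were sampled at t = 8 or t = 24, so differences from t = 0 there hold time in culture as well.

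SOX proteins bind DNA through a shared HMG box, which bends the helix, and are sorted into groups by the similarity of that box. SOX2 keeps neural progenitors undifferentiated. SOX4, SOX11 and SOX12 form the C group, which is active in immature neurons and in the developing sympathetic nervous system, from which neuroblastoma arises. SOX5, SOX6 and SOX13 form the D group, which lacks a transactivation domain of its own and acts with partners. SOX9 and SOX10, of the E group, act in the neural crest, and SOX9 is also a main regulator of cartilage and SOX10 of Schwann cells.

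Values are MAS5 signals on a linear scale, with each array scaled as a whole by the authors. Log2 differences are on the scale of log2(signal + 5.16), so they understate changes of dim probe sets. A probe set was tested where its signal reached the array's median, which lay between 18.1 and 22.6, on at least 3 of the 15 arrays. All 30676 such probe sets entered 1 limma fit over the 5 groups, and p-values are Benjamini-Hochberg adjusted over them. A difference passed at an adjusted p under 0.05. Groups whose arrays do not overlap are named as a description, since the share of all probe sets set apart in this way was not counted. Since signals of different probe sets are not comparable, no level is set against that of another gene. The number of arrays limits the precision, as 3 arrays stand behind each mean.

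The bioC probe sets, a hybridisation control, averaged 94.5 on induced t = 24 replicate 1 and 110.1 on induced t = 48 replicate 3, and 326.1 to 448.7 on the other 13 arrays. At t = 48 the 18S rRNA control lay between 150.2 and 172.9 on induced arrays, above the 76.7 to 94.9 of control arrays, and it reached 646.5 on t = 0 replicate 3. MSX1 on its brighter probe set averaged 111 ± 13.6 before induction (SD, n = 3 in each group), 161 ± 22.1 in t = 8 cells, 165 ± 20.7 in t = 24 cells and 83.2 ± 14.7 in induced t = 48 cells, against 50.7 ± 4.52 in control t = 48 cells. It was higher in induced than in control cells at t = 48 (log2 difference 0.65, adjusted p = 0.0278), while its dimmer probe set gave -0.42 and did not pass (adjusted p = 0.45). Against t = 0 the brighter probe set was lower in control cells at t = 48 (-1.05, adjusted p = 0.0116) and passed in induced cells at t = 24 alone (0.55, adjusted p = 0.0491). The dimmer one was lower in induced cells at t = 48 (-0.99, adjusted p = 0.0468). Of 11 markers of sympathoadrenal neuroblastoma, 9 were on the array with a single symbol and 8 were tested, MYCN, GATA3 and PHOX2A among them, while TH, the rate-limiting enzyme of catecholamine synthesis, was not tested, at no more than 7.3 on average in any group. Of the 8, PHOX2A (0.70) and CHGA (0.90) were higher and ISL1 (-1.20) was lower in induced than in control cells at t = 48, where 6.27% of genes passed. The part of these markers in the SOX results was not tested.

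Of the 34 SOX probe sets, 20 were tested and 14 were not. The 14 read 0.2 to 27.3 with a median of 4.3, and 2 of their 210 values reached the array's median. All probe sets of SOX2, SOX4, SOX9, SOX11 and SOX12 were tested. Of SOX5 1 of 4 was tested, of SOX6 1 of 8, of SOX13 1 of 3 and of SOX10 0 of 2. Just inside the filter lay SOX13 209736_at, at or above the median on 3 arrays, and just outside it SOX6 228214_at, which was so on 2. A dim signal does not show that a transcript is absent, since a probe set may miss the transcripts these cells make.

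**Figure D1:**
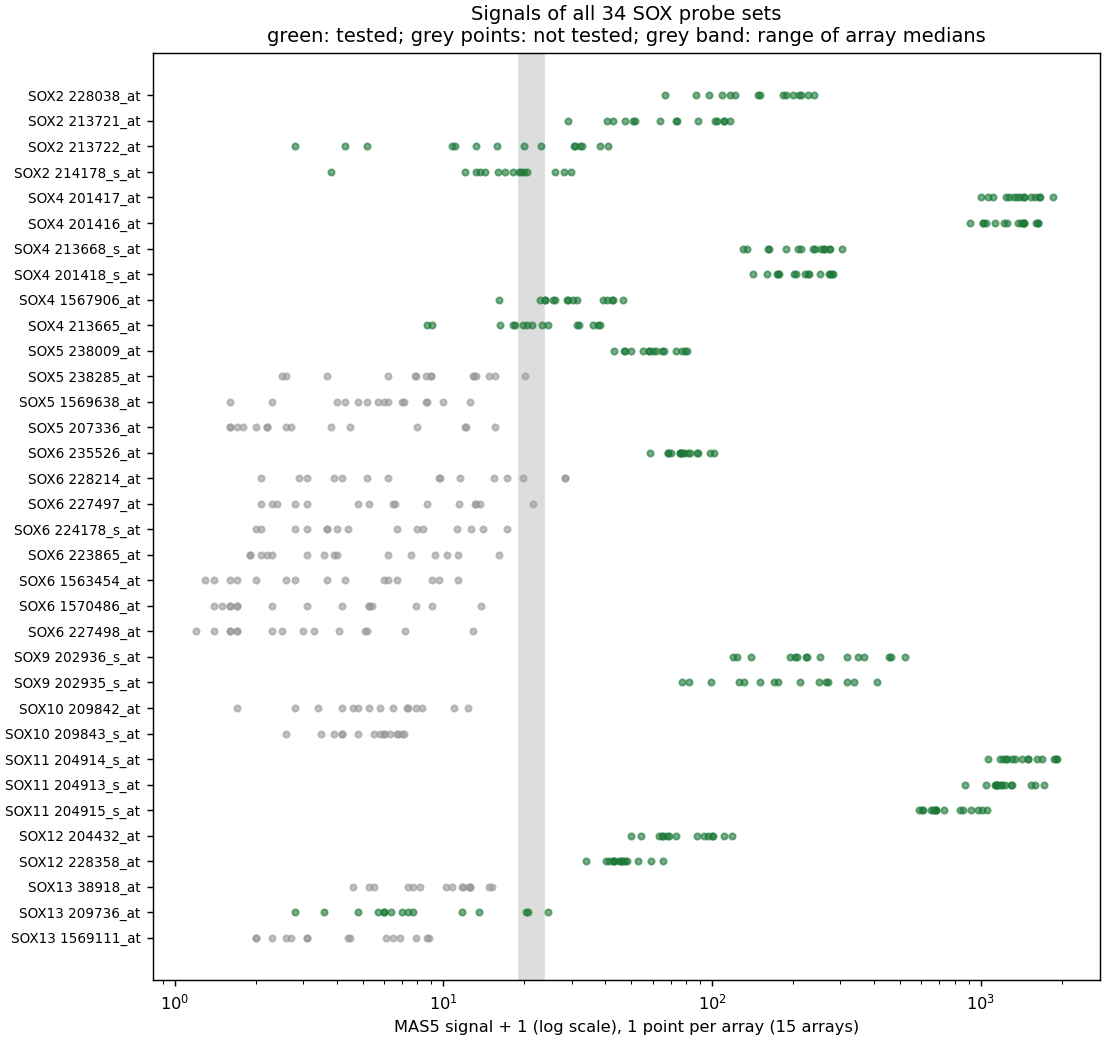
Signals of all 34 SOX probe sets, 1 point for each of the 15 arrays, on a log axis of signal + 1. Points of the 20 tested probe sets are green and those of the 14 others grey, and the grey band spans the array medians of 18.1 to 22.6, which both probe sets of SOX10 stayed below on every array.

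SOX2 fell in induced cells, SOX9 rose early and came down again, SOX11 rose late, SOX5 was higher than in control cells at t = 48 and SOX4 was lower at t = 8 than at t = 0, while SOX10 was not tested and no probe set of SOX6, SOX12 or SOX13 passed in any comparison. Between induced and control cells at t = 48, 8 of the 20 tested SOX probe sets passed, where 5.13% of all tested probe sets did. Of these 8, 5 were higher, beside 3.39% of all, and 3 lower, beside 1.74% of all. They came from 4 genes, and probe sets of a gene share their target, so they are not separate observations. With genes read on their brightest tested probe set, 4 of 8 SOX genes passed, beside 6.27% of 12880 genes. The members, like the gene lists below, were chosen with earlier results of these data known. A count above the share of all is therefore no test of the family. At t = 8 against t = 0, 5 SOX probe sets passed (1.11% of all), 2 higher (0.554% of all) and 3 lower (0.551% of all). At t = 24, 5 passed (6.08% of all), 3 higher (3.7% of all) and 2 lower (2.38% of all). At t = 48 against t = 0, 7 passed in induced cells (11.4% of all), 4 higher (6.84% of all) and 3 lower (4.59% of all). In control cells 1 passed (0.326% of all), with 0 higher (0.186% of all) and 1 lower (0.14% of all). These 4 comparisons share the arrays of t = 0.

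In the step from t = 8 to t = 24, 1 SOX probe set passed (2.38% of all), with 1 higher (1.53% of all) and 0 lower (0.857% of all). In the step from t = 24 to t = 48, 2 passed (2.25% of all), with 0 higher (1.28% of all) and 2 lower (0.975% of all), both of SOX9. By the F-test over the 5 groups 10 of the 20 differed, where 12.2% of all did, and they came from SOX2, SOX4, SOX5, SOX9 and SOX11. The median log2 difference of the 20 at t = 48 against control cells was 0.10, and that of all tested probe sets 0.01.

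Promoter windows are shown for SOX2 and SOX4, the members with a probe set lower at t = 8 than at t = 0. They hold the 250 bases before the gene's start and come from RefSeq on GRCh38.p14, where 6 of the 9 members had an entry. The SOX2 window is chr3:181711675-181711924 and that of SOX4 chr6:21593501-21593750, both on the plus strand and written 5′ to 3′. Capitals mark matches, on either strand, to the homeodomain word TAATTG, the SOX words ACAAAG and ACAATG, and the CCAAT box.
SOX2: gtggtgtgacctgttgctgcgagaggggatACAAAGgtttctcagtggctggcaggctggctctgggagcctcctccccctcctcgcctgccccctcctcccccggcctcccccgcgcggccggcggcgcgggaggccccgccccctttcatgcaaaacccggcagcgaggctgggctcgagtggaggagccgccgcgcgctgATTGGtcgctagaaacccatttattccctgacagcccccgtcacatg
SOX4: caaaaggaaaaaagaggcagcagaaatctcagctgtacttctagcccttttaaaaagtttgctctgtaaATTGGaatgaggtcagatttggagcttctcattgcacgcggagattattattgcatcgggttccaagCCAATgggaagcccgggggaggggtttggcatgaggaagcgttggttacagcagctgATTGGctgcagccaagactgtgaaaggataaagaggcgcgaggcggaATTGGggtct
The SOX2 window held 1 match to ACAAAG, 220 bases before the start, and 1 CCAAT box, and was 68.8% G or C. That of SOX4 held 4 CCAAT boxes, was 48.8% G or C, and held no SOX word. TAATTG was in neither window. Over all 35116 promoter windows of this length, 13.7% held ACAAAG, 9.29% ACAATG, 6.7% TAATTG and 32% CCAAT, and 0.874% held CCAAT at least 4 times. The arrays measured transcripts and not binding, so these words are a description of the windows.

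SOX2 fell in induced cells and was lower than in control cells at t = 48 on 3 of its 4 probe sets. On its brightest, 228038_at, it read 199.1, 186.6 and 225.9 on the t = 0 arrays, 149.8, 146.9 and 183.1 on those of t = 8, 115.5, 108 and 120.5 on those of t = 24 and 86, 96.4 and 65.8 on the induced t = 48 arrays, against 237.7, 213.6 and 209.9 on the control t = 48 arrays. Each induced time point lay below the one before it without overlap, and control cells overlapped with t = 0. The log2 difference from control cells at t = 48 was -1.37 (SE 0.14, adjusted p = 9.16e-05, limma), with a mean of 82.7 ± 15.6 in induced and 220 ± 15.1 in control cells (SD, n = 3 each). Against t = 0 it was -0.34 at t = 8 (adjusted p = 0.468, not passed), -0.80 at t = 24 (adjusted p = 0.00388) and -1.26 at t = 48 (adjusted p = 0.000108). Neither step between induced time points passed on its own (-0.46 each, adjusted p = 0.101 for t = 24 against t = 8 and 0.13 for t = 48 against t = 24).

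The second probe set of SOX2, 213721_at, also read lower at each induced time point than at the one before. It read 103.5, 115.6 and 109.8 on the t = 0 arrays, 72.4, 73.2 and 63.1 on those of t = 8, 50.4, 49.8 and 46.5 on those of t = 24 and 28, 39.7 and 41.8 on the induced t = 48 arrays, against 110.1, 101.6 and 87.6 on the control t = 48 arrays. Induced cells lay below t = 0 at all 3 times, by -0.62 at t = 8 (adjusted p = 0.0412), -1.09 at t = 24 (adjusted p = 0.000334) and -1.48 at t = 48 (adjusted p = 2.45e-05), and below control cells by -1.34 (adjusted p = 8.17e-05). Its step of -0.46 at t = 24 against t = 8 did not pass (adjusted p = 0.0864), but passed without induced t = 48 replicate 1 (0.0382) and with quantile normalization (0.0416). The pair of brighter probe sets kept their calls at t = 24 and t = 48 under each alternative run. The call of 213721_at at t = 8 did not. It was lost in 11 of 15 fits without 1 array (adjusted p = 0.0529 to 0.152), namely without any array of t = 0, induced t = 8 or induced t = 24, or without replicate 2 of induced or control cells at t = 48. It was also lost with an offset of 1, arrays centred on their median, no filter, only the groups compared or a replicate block (adjusted p = 0.0522 to 0.133).

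The dimmer SOX2 probe set 213722_at read 31.8, 14.8 and 29.8 on the t = 0 arrays, 9.8, 29.5 and 12.2 on those of t = 8, 18.9, 22 and 3.3 on those of t = 24 and 1.8, 10 and 4.2 on the induced t = 48 arrays, against 37.3, 40 and 31.1 on the control t = 48 arrays. The induced t = 48 arrays, each below the array's median, did not overlap with control or t = 0 arrays. Its log2 difference from control cells of -2.05 (adjusted p = 0.0215) depended on the offset, with -2.77 at an offset of 1 and -1.30 at 16. The call was lost without induced t = 48 replicate 1 or 3 or any 1 control array at t = 48 (adjusted p = 0.0509 to 0.0755), without both arrays with weak hybridisation controls (0.0729) and with no filter (0.0512). Against t = 0 at t = 48 it was -1.57 (adjusted p = 0.0418), a call lost in 8 of 15 fits without 1 array, namely without t = 0, induced t = 48 or control t = 48 replicate 1 or 3, control t = 48 replicate 2 or induced t = 8 replicate 3 (adjusted p = 0.0511 to 0.116). It was lost too under both scalings, with no filter, with only the groups compared and without both arrays with weak hybridisation controls (adjusted p = 0.0556 to 0.106). The remaining one, 214178_s_at, read between 2.8 and 28.7, reached the array's median on 4 arrays, and passed in no comparison, with 0.11 at t = 48 between induced and control cells (95% interval -0.78 to 0.99).

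**Figure D2:**
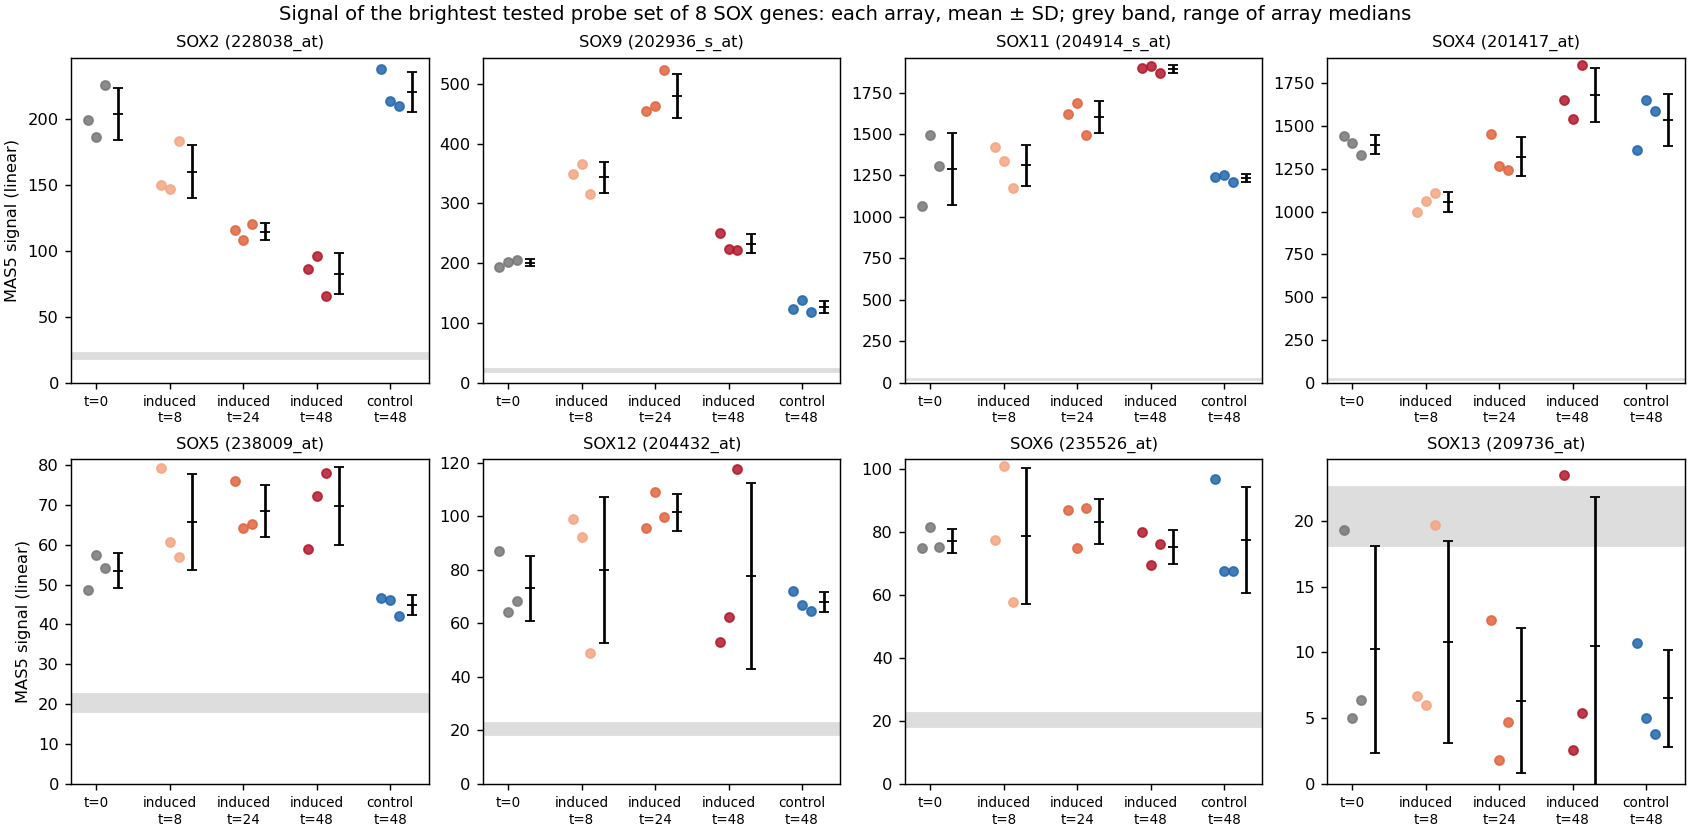
MAS5 signal of the brightest tested probe set of 8 SOX genes in t = 0, induced t = 8, t = 24 and t = 48, and control t = 48 cells. Points are arrays, black marks the mean ± SD of 3 arrays and the grey band the array medians. SOX2 declined over the induced time points, SOX9 was highest at t = 24, and SOX11 at t = 48 stood at 1868.2 to 1911.6 on induced arrays, against 1211.6 to 1253.7 on control arrays.

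SOX9 rose early in induced cells, was highest at t = 24 and came down again, while control cells at t = 48 lay below t = 0 without overlap on both probe sets, a difference that passed on 1 of them. On 202936_s_at it read 194.1, 201.9 and 205.5 on the t = 0 arrays, 348.6, 366.3 and 315.2 on those of t = 8, 455.3, 463 and 522.7 on those of t = 24 and 251, 223.6 and 222.3 on the induced t = 48 arrays, against 122.8, 138.2 and 118.7 on the control t = 48 arrays. No 2 of these 5 groups overlapped. The log2 difference from t = 0 was 0.76 at t = 8 (SE 0.10, adjusted p = 0.00174), 1.24 at t = 24 (adjusted p = 1.12e-05) and 0.21 at t = 48 (adjusted p = 0.183, not passed). At t = 48 it was 0.85 higher in induced than in control cells (adjusted p = 0.00027), a 1.80-fold difference. Control cells at t = 48 were lower than cells at t = 0 by -0.65 (adjusted p = 0.0134).

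The other probe set of SOX9, 202935_s_at, read 130.8, 150 and 124.8 on the t = 0 arrays, 269.5, 263.7 and 247.9 on those of t = 8, 410.5, 336.2 and 316.2 on those of t = 24 and 169.5, 174.7 and 211.7 on the induced t = 48 arrays, against 76.2, 97.9 and 81.3 on the control t = 48 arrays. It rose by 0.92 at t = 8 (adjusted p = 0.00357) and 1.35 at t = 24 (adjusted p = 6e-05) and was 1.08 higher in induced than in control cells at t = 48 (adjusted p = 0.000447), a 2.11-fold difference. Its difference between control t = 48 and t = 0 cells, -0.64, did not pass (adjusted p = 0.0771), but passed without both arrays with weak hybridisation controls (adjusted p = 0.0404) and with a trend and robust variance (0.0233). Its difference of 0.44 between t = 48 and t = 0 in induced cells passed narrowly (adjusted p = 0.048) and was lost in 11 of 15 fits without 1 array (adjusted p = 0.0505 to 0.169). Those were the fits without any array of t = 0, induced t = 8 or induced t = 48, and those without induced t = 24 replicate 2 or control t = 48 replicate 3. It was lost too under both scalings, with no filter, only the groups compared or a replicate block, and without both arrays with weak hybridisation controls (adjusted p = 0.073 to 0.116). On both probe sets the calls at t = 24 and against control cells held under each alternative. Those at t = 8 held under each but the fit of only those 2 groups (adjusted p = 0.083 on 202936_s_at and 0.0613 on 202935_s_at).

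Between induced time points, 202936_s_at rose by 0.48 at t = 24 against t = 8 (adjusted p = 0.0216) and fell by 1.03 on the log2 scale at t = 48 against t = 24 (adjusted p = 8.93e-05). The fall on 202935_s_at was -0.91 (adjusted p = 0.0021), a call lost with only the groups compared (0.0645). The step up was lost without induced t = 8 replicate 1 or 3 or induced t = 24 replicate 2 or 3 (adjusted p = 0.0504 to 0.0739), and with arrays centred on their median, no filter or only the groups compared (0.0885 to 0.209). The fall in control cells on 202936_s_at was lost without any 1 array of t = 0 or control t = 48 replicate 3 (adjusted p = 0.053 to 0.0902), and with the same 3 alternatives (0.0661 to 0.221). The order of the 5 groups by mean on either SOX9 probe set was t = 24, t = 8, t = 48 and t = 0 above control t = 48. On the brighter MSX1 probe set it was t = 24, t = 8, t = 0 and t = 48 above control t = 48. The dimmer MSX1 probe set had another order, with t = 0, t = 8, t = 24 and control t = 48 above induced t = 48.

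Markers of cells that use SOX9 and SOX10 were read beside these values. Of 6 chondrocyte markers, COL2A1 and ACAN were tested and passed in no comparison, and COL9A1 and COMP averaged at most 3.3 in any group. At t = 48 the summed signal of the 6 was 87.6 to 125 on induced arrays, against 130.2 to 147.8 on control arrays. At t = 0 it was 100.7 to 134.2, which overlapped with both. COL2A1 and ACAN hold most of this sum, so it mainly follows them. SOX10 itself read 0.7 to 11.3 on 209842_at and 1.6 to 6.1 on 209843_s_at over the 15 arrays, below the array's median on each. Of 5 Schwann cell markers on the array 1, ERBB3, was tested, S100B averaged at most 1.7, and at t = 48 their sum was 31.7 to 43 on induced and 34.3 to 69.5 on control arrays. Of the fibroblast markers, COL1A1, COL3A1, LUM and PDGFRA, 4 of 8 tested, rose at t = 24 against t = 0, where 7.93% of genes passed. At t = 8 against t = 0, COL1A1 alone passed (0.72), where 1.47% of genes did. Among the rest of these 4, PDGFRA gave 0.42, LUM 0.20 and COL3A1 -0.62. LUM and COL3A1 were dim there, at 11.7 and 21.0 on average. Against control cells at t = 48, COL3A1 (1.06) and LUM (2.53) rose, where 6.27% did. The 2 other tested probe sets of COL3A1 did not pass in that comparison. The summed signal of the 9 fibroblast genes was 2520.4 to 2589.9 in t = 24 cells and 1250.2 to 1409.3 in t = 0 cells. PDGFRA and COL1A1, which averaged 1197.6 and 918.6 in t = 24 cells, hold most of this sum, so it mainly follows them. At t = 48 the sum was 2093.3 to 2145 in induced cells, against 1563.6 to 1660.3 in controls. LUM, a collagen-binding proteoglycan, averaged 160 ± 27.6 in t = 24 cells and 9.73 ± 3.57 in t = 0 cells (SD, n = 3 each). Of the 9, DCN, THY1, ACTA2 and PDGFRB passed in none of the comparisons with t = 0 or with control cells, and COL1A2 was not tested. The part of fibroblast markers in the SOX9 result was not tested. Of 4 epithelial markers 0 were tested, and of 4 blood and endothelial ones PECAM1 and CD34 were tested and did not pass. In arrays of whole cultures, fewer cells of a type and less RNA per cell cannot be told apart.

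SOX11, a C group factor of sympathetic neuroblasts, rose late in induced cells. On 204914_s_at it read 1065.1, 1496.7 and 1305.9 on the t = 0 arrays, 1420.3, 1337 and 1176.7 on those of t = 8, 1622.5, 1690 and 1495.9 on those of t = 24 and 1899.7, 1911.6 and 1868.2 on the induced t = 48 arrays, against 1238.9, 1253.7 and 1211.6 on the control t = 48 arrays. The induced arrays at t = 48 lay above those of every other group, and t = 8 overlapped with t = 0. The log2 difference was 0.61 against control cells at t = 48 (SE 0.12, adjusted p = 0.00991) and 0.57 against t = 0 (adjusted p = 0.00881), while t = 8 gave 0.03 (adjusted p = 0.989) and t = 24 gave 0.32 (adjusted p = 0.132), neither passed.

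On 204915_s_at SOX11 averaged 647 ± 52.6 in t = 0 cells, 672 ± 60.5 in t = 8 cells, 869 ± 43.1 in t = 24 cells and 1013 ± 38.1 in induced t = 48 cells, against 639 ± 29.6 in control t = 48 cells (SD, n = 3 each). The arrays read 586.8, 675.1 and 680.4 at t = 0, 681.2, 727.8 and 607.7 on those of t = 8, 917.1, 854.5 and 834.4 on those of t = 24 and 977.7, 1008.6 and 1053.5 on the induced t = 48 arrays, against 651.7, 605.1 and 659.9 on the control t = 48 arrays. Both t = 24 and induced t = 48 lay above the other groups without overlap. It passed at t = 48 against control cells (0.66, adjusted p = 0.00144) and against t = 0 (0.64, adjusted p = 0.00108), and at t = 24 (0.42, adjusted p = 0.02). The third, 204913_s_at, read 875.3, 1201.1 and 1136.6 on the t = 0 arrays, 1140.4, 1228.4 and 1040.4 on those of t = 8, 1156.2, 1535.6 and 1290.5 on those of t = 24 and 1721.8, 1586.6 and 1300.1 on the induced t = 48 arrays, against 1142.3, 1185.1 and 1123 on the control t = 48 arrays. It gave 0.41 against control cells, which did not pass (adjusted p = 0.135, 95% interval 0.09 to 0.72), and 0.52 against t = 0 at t = 48, which did (adjusted p = 0.0376). All 3 probe sets read higher on each induced array at t = 48 than on any control array, which does not stand in for the test that 204913_s_at did not pass. The calls against control cells held under each alternative on both probe sets that passed, and that of 204914_s_at against t = 0 under each but the fit of only those groups (adjusted p = 0.0787). The call at t = 24 on 204915_s_at was lost without t = 0 replicate 1 or induced t = 24 replicate 1 (adjusted p = 0.0705 to 0.072). It was also lost with arrays centred on their median, no filter or only the groups compared, and without both arrays with weak hybridisation controls (0.0689 to 0.156). The call on 204913_s_at was lost without t = 0 replicate 1 or 3, induced t = 48 replicate 1 or 2, or control t = 48 replicate 2 or 3 (adjusted p = 0.0514 to 0.119), and with arrays centred on their median, no filter or only the groups compared (0.087 to 0.129).

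SOX4, a C group factor of neuronal differentiation, was lower at t = 8 than at t = 0 on 2 of its 6 probe sets. On 201416_at it read 1218.5, 1439.2 and 1448.1 on the t = 0 arrays, 1018.2, 1014.7 and 906.6 on those of t = 8, 1042.3, 1247.4 and 1128.4 on those of t = 24 and 1443, 1377.8 and 1407.8 on the induced t = 48 arrays, against 1630.8, 1637.3 and 1607.8 on the control t = 48 arrays. The arrays at t = 8 lay below all others on this probe set. On 213668_s_at it read 239.6, 207.7 and 270.7 on the t = 0 arrays, 129.2, 160.6 and 133.8 on those of t = 8, 235.9, 188 and 162.2 on those of t = 24 and 212.3, 260 and 252.3 on the induced t = 48 arrays, against 274.3, 302.3 and 260.8 on the control t = 48 arrays. There too the arrays at t = 8 lay below all others. The difference at t = 8 was -0.48 against t = 0 (SE 0.10, adjusted p = 0.032) on 201416_at and -0.74 (SE 0.15, adjusted p = 0.032) on 213668_s_at. On 201417_at, the brightest, SOX4 read 1441.3, 1402.5 and 1330.8 on the t = 0 arrays, 997.4, 1060.1 and 1109.9 on those of t = 8, 1452.1, 1266.6 and 1242.1 on those of t = 24 and 1651.5, 1540.1 and 1854.1 on the induced t = 48 arrays, against 1361.5, 1649.7 and 1589.4 on the control t = 48 arrays. Its t = 8 value was -0.40 on the log2 scale against t = 0, which missed the threshold (adjusted p = 0.123) but passed with a trend and robust variance (0.0273). Another, 201418_s_at, gave -0.30 (adjusted p = 0.816). On all 4 of these, each array at t = 8 read lower than any at t = 0, which does not stand in for the test that 2 of the 4 did not pass. These 4 share their target and their arrays, so they are not separate observations.

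Both SOX4 calls at t = 8 were weak. That of 201416_at was lost in 9 of 15 fits without 1 array (adjusted p = 0.0508 to 0.136), namely without induced t = 8 replicate 1, 2 or 3, t = 0 replicate 2 or 3, induced t = 24 replicate 3, induced t = 48 replicate 2 or control t = 48 replicate 2 or 3. That of 213668_s_at was lost in 5 (0.0509 to 0.137), namely without t = 0 or induced t = 8 replicate 1 or 3 or induced t = 24 replicate 2. Both were lost with arrays centred on their median (0.163 and 0.0982), no filter (0.117 and 0.089), only the groups compared (0.305 and 0.187) and a replicate block (0.0622 and 0.0739). At t = 48 SOX4 did not differ past the threshold between induced and control cells on any of its 6 probe sets. The 4 brighter ones gave -0.21, -0.21, 0.10 and 0.13, and the interval of the last, on 201417_at, ran from -0.09 to 0.36. On 201418_s_at the step of 0.50 at t = 48 against t = 24 did not pass (adjusted p = 0.3), but was 0.78 and passed without induced t = 24 replicate 1 (0.0122). The 2 dimmer probe sets, 1567906_at and 213665_at, read 7.7 to 45.6 and passed in no comparison, and the first of them gave 0.22 at t = 8, opposite in sign to the brighter ones.

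SOX12, the third C group gene, passed in no comparison on either probe set. On 204432_at it read 87, 64.2 and 68.3 on the t = 0 arrays, 99.1, 92.2 and 48.7 on those of t = 8, 95.5, 109.2 and 99.7 on those of t = 24 and 53.1, 62.4 and 117.6 on the induced t = 48 arrays, against 72.2, 67 and 64.6 on the control t = 48 arrays. On 228358_at it read 32.9 to 64.5 over the 15 arrays. The differences between induced and control cells at t = 48 were 0.10 on the first (95% interval -0.49 to 0.70) and 0.09 on the other (-0.31 to 0.49). The reading of 117.6 on 204432_at came from induced t = 48 replicate 3, 1 of the arrays with weak hybridisation controls.

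**Figure D3:**
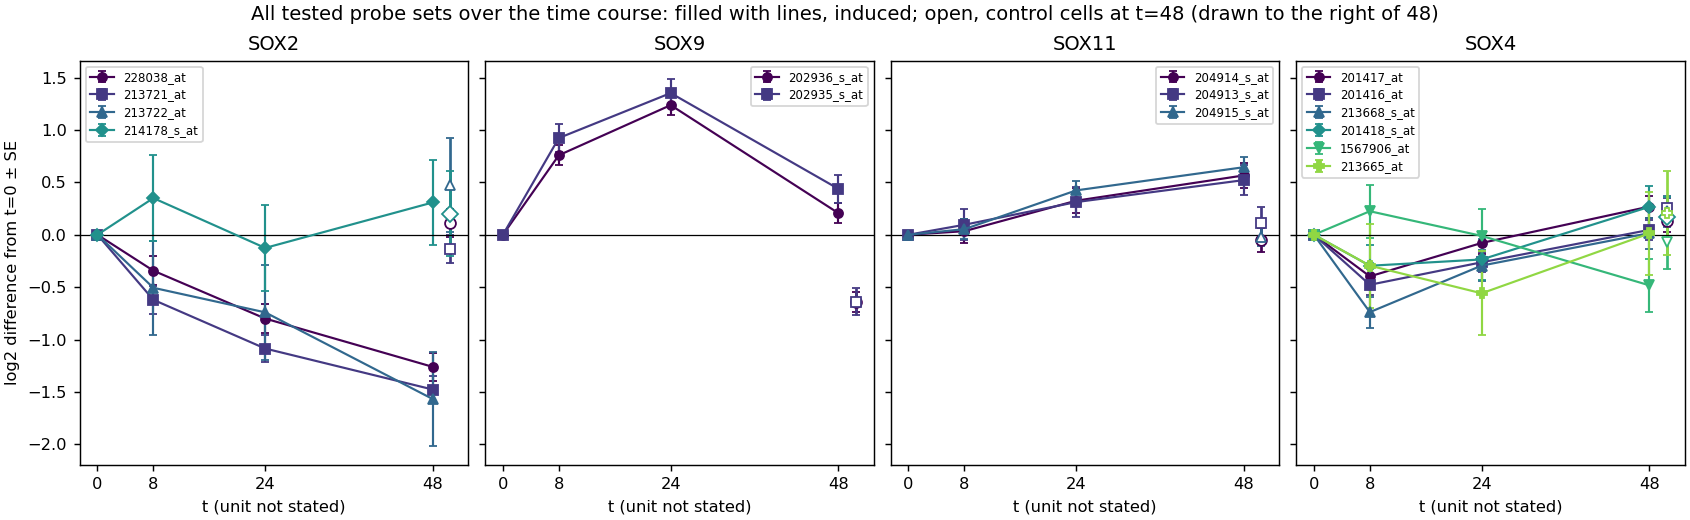
Log2 difference from t = 0 with its SE for every tested probe set of SOX2, SOX9, SOX11 and SOX4, with induced cells as filled, joined symbols and control cells at t = 48 as open symbols. Both SOX9 probe sets peak at t = 24 (1.24 and 1.35), 3 of 4 SOX2 probe sets decline to between -1.26 and -1.57 at t = 48, and the 3 SOX11 probe sets reach 0.52 to 0.64.

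Of the D group, SOX5 was higher in induced than in control cells at t = 48. Its tested probe set, 238009_at, read 59, 72.3 and 78.1 in induced cells and 46.5, 46 and 42 in control cells, without overlap, a difference of 0.58 (SE 0.13, adjusted p = 0.0266). Earlier it read 48.7, 57.4 and 54.2 on the t = 0 arrays, 79.3, 60.8 and 57 on those of t = 8, and 75.9, 64.1 and 65.1 on those of t = 24, so that t = 24 lay above t = 0 without overlap and t = 8 overlapped with it. The difference of 0.33 at t = 24 did not pass (adjusted p = 0.182), and the differences from t = 0 of 0.35 in induced (adjusted p = 0.107) and -0.23 in control cells at t = 48 (adjusted p = 0.691) did not pass. The call was lost without induced t = 48 replicate 2 or 3 or any 1 control array at t = 48 (adjusted p = 0.0665 to 0.105). It was lost as well without both arrays with weak hybridisation controls (0.086), with a replicate block (0.0524), with only the groups compared (0.075) and with no filter (0.0764). SOX6, the partner of SOX5 in cartilage, on 235526_at read 74.8, 81.6 and 75.3 on the t = 0 arrays, 77.3, 100.9 and 57.7 on those of t = 8, 87, 75 and 87.6 on those of t = 24 and 80, 69.4 and 76.1 on the induced t = 48 arrays, against 96.8, 67.7 and 67.6 on the control t = 48 arrays, with all groups overlapping. It passed in no comparison, with -0.02 between induced and control cells at t = 48 (95% interval -0.40 to 0.36). Its other 7 probe sets read 0.2 to 27.3. SOX13 read 1.8 to 23.5 on 209736_at, which passed in no comparison (0.23 at t = 48, 95% interval -0.89 to 1.36), and 1 to 14.2 on the 2 untested ones.

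**Figure D4:**
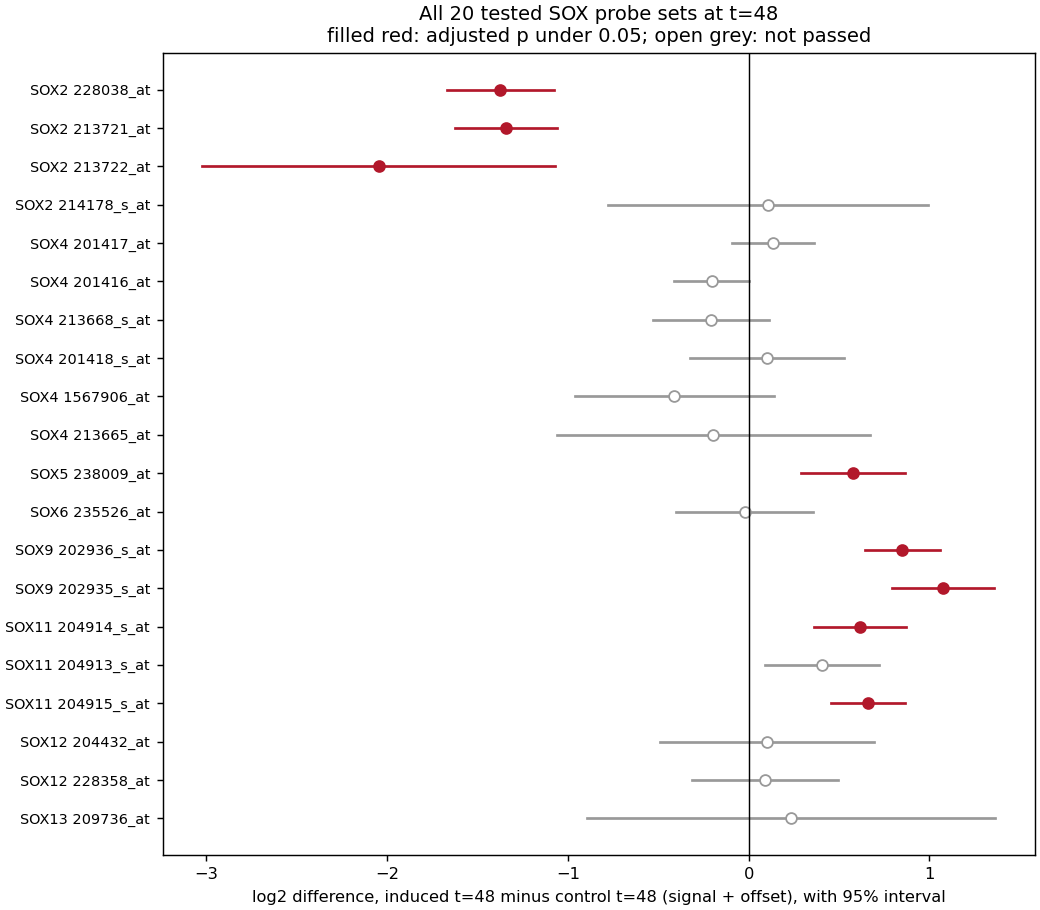
Log2 difference between induced and control cells at t = 48 for the 20 tested SOX probe sets, with 95% intervals of the limma fit. Filled red points passed at an adjusted p under 0.05, which were 3 of SOX2 to the left of 0 and 5 of SOX5, SOX9 and SOX11 to the right, and open grey points did not.

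For the 5 SOX genes whose brightest probe set passed the F-test, the genes with the most similar pattern were ranked by Pearson's r over the 15 arrays, among 12879 others on their brightest tested probe set. The arrays share 5 groups, so r follows differences between groups as well as between single arrays. SOX9 was most like SFRP1, a secreted Wnt antagonist (r = 0.985), BAMBI, a decoy receptor of the TGF-beta family (0.972), and GRK3, a receptor kinase (0.972). SOX2 was most like MGST1, a glutathione transferase (0.948), TBC1D19 (0.947) and NCAPD2, a condensin subunit (0.938). SOX11 was most like DST, a cytoskeletal linker (0.932), KLF13 (0.932) and NRXN3, a neurexin (0.919). SOX4 was most like BZW2 (0.941), CACNA2D1, a calcium channel subunit (0.913), and NAB1 (0.910). SOX5 was most like NFE2L1 (0.918), AFDN-DT (0.889) and CYTH2 (0.889).

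Genes that work with or downstream of the SOX factors were counted by list, each gene on its brightest tested probe set. Of 10 neural progenitor genes tied to SOX2, 7 were tested and 0 passed by limma between induced and control cells at t = 48, 1 at an unadjusted p under 0.05, with a median of -0.13, where 6.27% of genes passed and the median of all was -0.01. The intermediate filament gene NES gave 0.17, VIM gave -0.13 and the Notch receptor gene NOTCH1 gave -0.24. VIM fell at t = 48 against t = 0 in induced cells (-0.45), as the 1 of these 7 to pass there, where 13.8% of genes passed. In control cells at t = 48 against t = 0 VIM gave -0.32 and did not pass. Of 10 neuronal genes tied to SOX4 and SOX11, all were tested and 2 rose at t = 48 against control cells, DCX, a microtubule protein of migrating neurons (0.77), and STMN2, a growth cone protein (1.67), while TUBB3, a neuronal tubulin, gave -0.20 and the median was 0.23. Against t = 0, 5 of these 10 rose at t = 48 in induced cells, DCX, STMN2, MAP2 (0.77), DPYSL3 (0.55) and ELAVL4 (0.28), where 13.8% of genes passed. At t = 24 DCX rose (1.13) and TUBB3 fell (-0.44). DCX also rose in control cells (0.79), as the 1 of the 10 to pass there, where 0.458% of genes passed.

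Of 15 cartilage genes of the SOX9, SOX5 and SOX6 trio, 9 were tested and 1, COL11A1, a fibrillar collagen, rose at t = 48 against control cells (0.72), where 6.27% of genes passed, while COL2A1, the main cartilage collagen, gave -0.22 and ACAN, the cartilage proteoglycan, -0.21. The list median was -0.21. COL11A1 was also the 1 of these 9 to rise at t = 24 (0.81), when SOX9 was highest, where 7.93% of genes passed. From t = 24 to t = 48, when SOX9 fell, COL11A1 gave -0.04 and did not pass. In induced cells at t = 48 against t = 0, 2 of the 9 were higher, COL11A1 (0.77) and COL27A1 (0.66), where 13.8% of genes passed. The other tested probe set of COL11A1 did not pass at t = 48 against control cells. Of 12 glial and crest genes tied to SOX10, 4 were tested and 1 rose at t = 48 against control cells, EDNRB, the endothelin receptor of crest cells (0.72), where 6.27% of genes passed, with a median of 0.38 over the 4. RET, the GDNF receptor kinase, gave 1.46 and did not pass on its brightest probe set (adjusted p = 0.137), while 1 of its 2 other tested probe sets passed. Of 12 SOX partner factors, 7 were tested and 0 passed at t = 48 against control cells by limma, 2 at an unadjusted p under 0.05 (median 0.14). TCF7L2, a Wnt effector, rose at t = 8 (0.52, where 1.47% of genes passed) and at t = 24 (0.78) against t = 0, and gave -0.01 at t = 48. CTNNB1, which encodes beta-catenin, rose at t = 24 (0.44) and POU3F1 fell (-0.49). POU3F1, which read 13.3 to 30.2 over the arrays, rose again at t = 48 against t = 24 (0.80). In induced cells at t = 48 it gave 0.30 against t = 0 and did not pass. Of 9 other SOX genes, SOX7 and SOX15 were tested, and SOX7, an F group factor of endothelial cells, rose at t = 24 against t = 0 (0.74) and gave -0.17 at t = 48 against control cells.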

How the data were processed

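Gene expression was measured on 15 Affymetrix arrays of IMR32 cells. The authors deposited linear intensities, computed with GCOS (MAS5) per the submitters' processing notes. Version and settings are not given in the sources used here. After 2 percent of probe sets were trimmed from each end, every array averaged 100.01, so arrays had been scaled as a whole, which leaves differences in their low signals in place. Of 54675 probe sets 62 were array controls, 41091 had 1 gene symbol and 1801 several. Symbols were updated by Entrez identifier through RefSeq (GRCh38.p14).

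The lower quartile of signal, averaged over arrays, was added as an offset (5.16) before log2. limma 3.58.1 in R 4.3.3 fitted 5 group means to all 15 arrays (lmFit, eBayes, two-sided), and was tested on simulated data. Figures used matplotlib 3.10.9. The members and gene lists were chosen with earlier results of these data known. Named genes were all member probe sets, the 3 most alike genes of each member that passed the F-test, and up to 3 passing genes of each list with a few others chosen after their values were seen. Alternatives covered the offset, scaling, filter, probe set per gene, arrays in the fit, replicate block, variance model and left-out arrays. The highest correlation between any 2 arrays was 0.979, so no pair of arrays held the same values.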

Additional observations from a re-analysis of the deposited data

Results flagged for a closer look

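The difference of SOX9 from t = 0 in induced cells was not the same at each time point, by the test of the step between them. These steps have no control cells at t = 8 or t = 24, so induction and time in culture cannot be told apart in them. On 202936_s_at the difference from t = 0 grew by 0.48 at t = 24 against t = 8 and shrank at t = 48 against t = 24, with a step of -1.03. On 202935_s_at that last step was -0.91. No other SOX probe set passed in either step. With 3 arrays a group, no group was large enough for a test of single outlying arrays.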

How the results depend on the processing

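Of 735 refitted values of the 29 calls of a SOX probe set in a comparison, 618 kept the call, 117 lost it and 0 reversed. Many of these refits could not change the direction. The filter, the replicate block, the variance model and arrays left out of other groups leave the log2 difference itself as it was. Only the offset, the scaling and arrays left out of the groups compared can alter it. The same holds for values that did not pass. Of 111 tested values that did not pass, 6 passed under at least 1 alternative, with the same sign. With 1 probe set per gene, counts are of genes, 4 for induced against control t = 48, 1 for t = 8, 2 for t = 24 and 2 for induced t = 48 against t = 0, 1 for t = 48 against t = 24, and 5 by the F-test. With arrays centred on their median the counts were 2 at t = 8 and 4 at t = 48 against t = 0, and 0 in control cells and from t = 8 to t = 24. With no filter they were 2, 4, 0 and 0 in the same comparisons, where more probe sets share the adjustment. With only the groups compared, which leaves fewer arrays in each fit, they were 0, 3, 0 and 0, and 1 from t = 24 to t = 48. The trend and robust variance gave 2 in control cells and 2 from t = 8 to t = 24, quantile normalization gave 2 in that step, and leaving out both arrays with weak hybridisation controls gave 2 in control cells. The cause was not tested for the scalings and the variance model. Leaving out 1 array gave 6 to 8 probe sets for induced against control t = 48, 2 to 5 for t = 8, 4 to 5 for t = 24 and 4 to 7 for induced t = 48 against t = 0, 0 to 1 in control cells, 0 to 2 and 2 to 3 in the steps, and 9 to 11 by the F-test. Centring or quantile normalization moved the median of all probe sets by under 0.1 in each comparison. Deviations from group means correlated above 0.1 for 2 of 30 same-numbered pairs (-0.33 to 0.19). With 3 arrays a group this cannot decide whether arrays of the same number were paired. With the replicate block 2 probe sets passed at t = 8 against t = 0 in place of 5. Dim probe sets near the array median have the widest intervals, as for SOX13 and the dimmer SOX2 ones.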
